A study of Mus musculus with 12 samples.

Results

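The glucocorticoid receptor gene Nr3c1 and 6 genes known to be induced by glucocorticoids in liver (Tsc22d3, Fkbp5, Tat, Sgk1, Mt1 and Mt2) were followed through the day in nascent RNA. These 7 genes were taken by name from a table of 21490 gene symbols. Sgk1 is listed there under its older symbol Sgk, and the others under the names used here. All livers came from C57BL/6 mice of 3 to 6 months that carried no transgene and had spent at least 2 weeks in 12 hr of light and 12 hr of darkness. Zeitgeber time (ZT) counts hours from lights on, with lights off at ZT12. Livers were taken every 4 hr from ZT0 to ZT20, as 2 replicates at each of the 6 times, which makes 12 libraries. Nascent-Seq sequences RNA that is still attached to the chromatin of purified nuclei, so it follows transcription more closely than the amount of messenger RNA. No group was treated with a hormone, and no corticosterone values were used here.

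The glucocorticoid receptor waits in the cytoplasm in a complex with heat shock chaperones and immunophilins. When it binds corticosterone, the main glucocorticoid of mice, it enters the nucleus and binds glucocorticoid response elements, short palindromes near or within the genes it controls. Corticosterone of nocturnal rodents is known to be high around lights off and low around lights on, and liver is a classical target tissue, where glucocorticoids raise gluconeogenesis and amino acid breakdown.

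Levels are given in rpbp (reads per base pair), the deposited signal over merged exons, already divided by exon length and scaled to the same depth in every library, so they can be set beside each other between genes. Only genes that passed 6 rpbp in some library were tested, which left 6284 symbols and 6 of the 7 genes. Sgk1, with a highest value of 4.2 rpbp, was not tested. The summed rpbp of a library ranged from 118342 to 160545. The libraries of ZT8 and ZT20 were run in 2 lanes and the other 8 in 1, so lanes and time points cannot be told apart where ZT8 or ZT20 is set against the others. Time points 12 hr apart had the same number of lanes. All 6 hepatocyte markers, which include Tat, were above 6 rpbp, and the cholangiocyte markers Krt19, Krt7 and Epcam never exceeded 1 rpbp. In whole liver, fewer cells of a type and less nascent RNA per cell cannot be told apart.

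The 7 genes spanned a wide range of levels and of variation. Tat was the highest with 239 rpbp ± 130 (SD, n = 12 libraries), followed by Tsc22d3 (17.4 rpbp ± 11.5), Nr3c1 (13.0 rpbp ± 2.31), Fkbp5 (6.34 rpbp ± 9.23), Mt1 (6.14 rpbp ± 8.61), Sgk1 (2.22 rpbp ± 1.06) and Mt2 (2.01 rpbp ± 3.41). Single libraries weighed on the low means. Without ZT12 replicate 2 the mean of Fkbp5 was 3.99 rpbp, below that of Mt1 (5.56 rpbp), and Mt1 was also the higher with equal medians and without the GC trend. Without ZT16 replicate 2 the mean of Mt2 was 1.14 rpbp. The receptor gene was the steadiest of the tested 6, at percentile 20.4 of all tested genes when ranked by SD over mean. The 5 tested target genes stood between percentile 90.7 (Tat) and percentile 99.8 (Mt2) of the same ranking. Mt2, Fkbp5 and Mt1 passed 6 rpbp in only 1, 3 and 4 libraries, and genes tested through a few high libraries rank high by selection. Tat passed it in 12 and Tsc22d3 in 11.

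**Figure D1:**
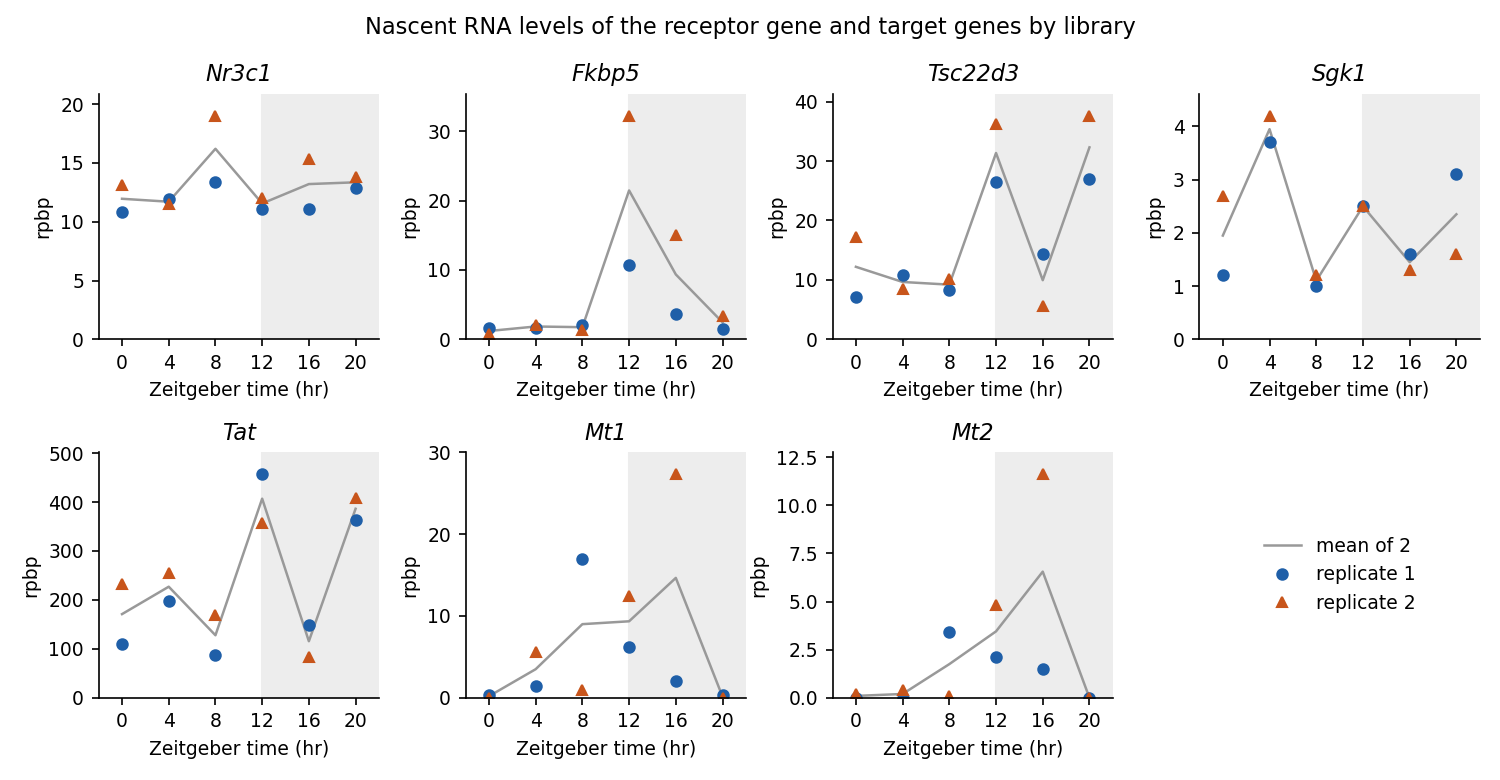
Nascent RNA levels in rpbp (y axis, from 0, a separate scale for each gene) against zeitgeber time in hours (x axis) for the 7 genes. Circles are replicate 1, triangles replicate 2, lines the mean of both, and the shaded span is the dark phase. Tat and Tsc22d3 were high in all 4 libraries of ZT12 and ZT20, Fkbp5 reached 32.2 rpbp at ZT12, and Nr3c1 stayed between 10.8 and 19.0 rpbp.

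Nr3c1 lies on chromosome 18 from 39570199 to 39650328 on the minus strand (mm9, as are all positions below unless another build is named). Its replicate 1 values were 10.8, 11.9, 13.4, 11.1, 11.1 and 12.9 rpbp at ZT0, ZT4, ZT8, ZT12, ZT16 and ZT20. In the same order, the replicate 2 values were 13.1, 11.5, 19.0, 12.0, 15.3 and 13.8 rpbp. One library, ZT8 replicate 2, stood highest, and the others lay within 10.8 to 15.3 rpbp. Ordered by mean, the time points ran ZT8, ZT20, ZT16, ZT0, ZT4 and ZT12, and the values of every neighbouring pair in this order overlapped.

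No difference between time points was detected for the receptor gene. On log2(rpbp + 1) values, the moderated F-test of limma across all 6 times gave an adjusted p of 0.563. Between ZT12 and ZT0 the log2 difference was −0.04 (SE 0.224, limma adjusted p = 0.942), with 0.97 as the ratio of the means, and its sign depended on the processing (0.036 after removal of the GC trend of each library). The 24-hr Fourier component held 0.0514 of its variance (F24, one-sided permutation p = 0.853).

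Fkbp5 encodes FKBP51, an immunophilin of the receptor complex that lowers the affinity of the receptor for hormone, and it is itself induced by glucocorticoids. The gene lies on chromosome 17 from 28536042 to 28654469 on the minus strand. Replicate 1 gave 1.6, 1.7, 2.1, 10.7, 3.7 and 1.5 rpbp from ZT0 to ZT20, and replicate 2 gave 0.8, 2.0, 1.4, 32.2, 15.0 and 3.4 rpbp. Both libraries of ZT12 and both of ZT16 were above the other 8, which did not exceed 3.4 rpbp. The ZT12 and ZT16 values overlapped, because ZT16 replicate 2 was above ZT12 replicate 1. The replicates also disagreed by 3.01-fold at ZT12 and by 4.05-fold at ZT16, which put their log2(rpbp + 1) differences at percentiles 98.8 and 97.9 of all tested genes at these times.

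Fkbp5 rose from lights on to lights off. Its mean was 21.4 rpbp ± 15.2 at ZT12 and 1.2 rpbp ± 0.566 at ZT0 (SD, n = 2), a ratio of 17.9. The log2 difference was 3.19 (SE 0.586, limma adjusted p = 0.0156), on the log2(rpbp + 1) scale, which understates changes of low genes. Of the 6 tested genes Fkbp5 alone was called between ZT12 and ZT0, where 4.44% of all tested genes were called in either direction and 2.85% were called higher at ZT12. Fkbp5 passed 6 rpbp in only 3 libraries, both ZT12 libraries and ZT16 replicate 2, so it was tested through times at which it is high. Both of its ZT0 values lay below 6 rpbp. The call was kept in 15 of 19 alternative settings and was lost without ZT0 replicate 1 (limma adjusted p = 0.0945), without ZT0 replicate 2 (0.0939), without ZT12 replicate 2 (0.0951) and with all symbols tested (0.112).

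The motif of the glucocorticoid response element was searched by its letters around the annotated start sites of the 7 genes. The strict form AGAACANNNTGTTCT and the looser form AGNACANNNTGTNCT both read the same on either strand, and the looser one includes the strict one. Windows of 5000 bases on each side of the GENCODE M1 start sites of protein-coding genes were read from NCBIM37, the same build as mm9. Of 22232 genes with such windows, 0.306% held the strict form in at least 1 window and 4.28% the looser one. The 7 genes had 35 windows, many of them overlapping, from 1 for Mt2 to 11 for Sgk1, and genes with more start sites were searched over more sequence. Among the 7 genes the strict form was found once each at Fkbp5 and Sgk1, and the looser form also at Mt2. The letters found at these genes are shown with 20 bases on each side, 5′ to 3′ on the strand of the gene, with the fixed letters of the motif in capitals.
Fkbp5, strict form: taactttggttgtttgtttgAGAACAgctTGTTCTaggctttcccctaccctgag
Sgk1, strict form: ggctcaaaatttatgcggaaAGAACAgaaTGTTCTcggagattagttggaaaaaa
Mt2, looser form: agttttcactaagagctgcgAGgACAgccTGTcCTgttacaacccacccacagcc

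The Fkbp5 letters are at chr17:28579344-28579398 on the minus strand, in an intron of 2 transcripts, and the motif is centred 704 bases upstream of the start of a shorter one. At Sgk1 the stretch is chr10:21713487-21713541 on the plus strand, in introns of 5 transcripts and with the motif 182 bases upstream of another start. The Mt2 stretch, chr8:96695415-96695469 on the plus strand, overlaps no annotated transcript and has its motif 1076 bases upstream of the Mt2 start. Nr3c1, Tsc22d3, Tat and Mt1 had neither form in these windows, which says only that these letters are not there. Binding of the receptor was not measured in the data used here.

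Tsc22d3 and Tat had a different daily profile from Fkbp5, with high values at ZT12 and again at ZT20. Tsc22d3 encodes GILZ, a leucine zipper protein through which glucocorticoids dampen inflammation, and lies on the X chromosome from 137074068 to 137135061 on the minus strand. Its values from ZT0 to ZT20 were 7.2, 10.8, 8.3, 26.4, 14.3 and 27.0 rpbp in replicate 1 and 17.2, 8.5, 10.1, 36.3, 5.6 and 37.6 rpbp in replicate 2. All 4 libraries of ZT12 and ZT20 (26.4 to 37.6 rpbp) lay above the other 8 (5.6 to 17.2 rpbp), and ZT12 and ZT20 overlapped each other. The row Tilz3b overlaps Tsc22d3 and followed it (Pearson r 0.995 over the 12 libraries, a value of shared reads and not of a further gene).

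Tat encodes tyrosine aminotransferase, the first enzyme of tyrosine breakdown and a long-studied target of the receptor. It lies on chromosome 8 from 112514357 to 112523701 on the plus strand. Replicate 1 gave 109.2, 198.6, 86.5, 456.6, 148.4 and 363.4 rpbp from ZT0 to ZT20, and replicate 2 gave 232.9, 255.5, 169.2, 357.2, 82.9 and 409.2 rpbp. As for Tsc22d3, the 4 libraries of ZT12 and ZT20 (357.2 to 456.6 rpbp) were all above the other 8 (82.9 to 255.5 rpbp). Such a separation was found for 0.382% of all tested genes, and these times were picked after the values were seen. The lowest Tat mean was that of ZT16 (116 rpbp ± 46.3, SD, n = 2), between the peaks, and in the order ZT4, ZT0, ZT8 and ZT16 of the lower means each overlapped the next.

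By limma's F-test over the 6 time points, 2 of the 6 tested genes were called at an adjusted p under 0.05, against 7.65% of all tested genes. They were Fkbp5 (adjusted p = 0.0353) and Tat (adjusted p = 0.0482). Tsc22d3 was just outside (adjusted p = 0.0505), followed by Mt2 (0.125), Mt1 (0.181) and Nr3c1 (0.563). At an unadjusted p under 0.05 there were 4 of 6, against 27.6% of all tested genes. The calls depended on the setting. Fkbp5 was called in 9 of 21 alternative settings (adjusted p from 0.00923 to 0.176), Tsc22d3 in 6 of 21 (0.0177 to 0.205) and Tat in 3 of 21 (0.0325 to 0.198). The Tat call was kept without ZT0 replicate 2 or ZT16 replicate 1 and lost without any of the other 10 libraries (adjusted p from 0.0522 to 0.121). The Fkbp5 call was kept without ZT12 replicate 1, ZT16 replicate 1 or ZT16 replicate 2 and lost without any of the other 9 (adjusted p from 0.051 to 0.103).

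Set against the opposite time of day, Tat and Tsc22d3 were higher at ZT12 and at ZT20 in size but did not pass the test. Between ZT12 and ZT0 the ratio of the means was 2.38 for Tat (log2 difference 1.33, SE 0.420, limma adjusted p = 0.109) and 2.57 for Tsc22d3 (1.39, SE 0.437, limma adjusted p = 0.109). Between ZT8 and ZT20, both run in 2 lanes, Tsc22d3 differed by −1.69 (SE 0.437, limma adjusted p = 0.0961) and Tat by −1.66 (SE 0.420, limma adjusted p = 0.0887), both lower at ZT8. In that comparison 0 of the 6 genes were called by limma (2 at an unadjusted p under 0.05), where 1.58% of all tested genes were called and 12.6% had an unadjusted p under 0.05. Between ZT4 and ZT16 also 0 of 6 were called by limma (3 at an unadjusted p under 0.05), where 2.1% of all tested genes were called and 19.4% had an unadjusted p under 0.05. The log2 differences there, ZT4 minus ZT16, were 1.02 for Tat (SE 0.420), −1.61 for Fkbp5 (SE 0.586) and −2.25 for Mt2 (SE 0.736).

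**Figure D2:**
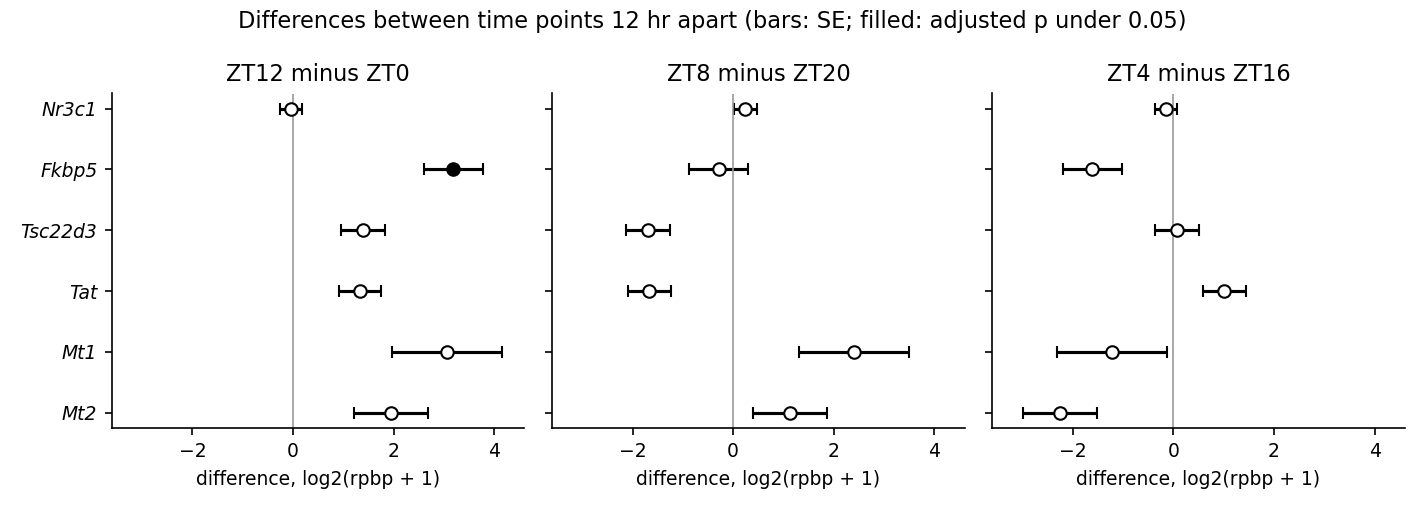
Log2 differences on the log2(rpbp + 1) scale (x axis) for the 6 tested genes (y axis) between time points 12 hr apart, as fitted by limma over all 12 libraries. Circles are estimates, bars are 1 SE, and the filled circle is the adjusted p under 0.05 of Fkbp5 between ZT12 and ZT0, where the other 4 target genes also lie above 0 and Nr3c1 lies at −0.04.

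Between ZT12 and ZT0 both values of ZT12 lay above both of ZT0 in 5 of the 6 tested genes, all but Nr3c1, where 26.2% of all tested genes had this order. The 5 had an unadjusted limma p under 0.05, as did 18.4% of all tested genes. The median log2 difference of the 6 genes was 1.67, beside 0.03 over all tested genes. Fkbp5 passed 6 rpbp only in both ZT12 libraries and ZT16 replicate 2, so for it the filter itself favours this order. The genes were also chosen with earlier results of these data known, so no conclusion is drawn from these shares. In none of the 6 did both ZT12 values exceed all 10 others, which held for 7.67% of all tested genes.

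The profiles were also read as rhythms. As in the methods of the study, a rhythmic gene needed an F24 above 0.45, a one-sided permutation p under 0.05 and a ratio of its extreme values above 1.5. None of the 6 tested genes was rhythmic, against 15.2% of all tested genes, and a cosine fit in limma also called 0 of them. Fkbp5 came nearest, with F24 0.434 and phase 13.1 hr (permutation p = 0.0102). Of the 6 genes 1 had an unadjusted permutation p under 0.05, against 16.4% of all tested genes, and 0 had an adjusted one, against 0.70%. The F24 was 0.369 for Mt2 (phase 13.9 hr, permutation p = 0.0599), 0.303 for Mt1 (12.4 hr, permutation p = 0.189), 0.216 for Tsc22d3 (permutation p = 0.325) and 0.0677 for Tat (permutation p = 0.716). On log2 values Fkbp5, Mt1 and Mt2 passed the criteria. Fkbp5 also passed without ZT12 replicate 2, ZT16 replicate 1, ZT8 replicate 1 or ZT8 replicate 2 (F24 0.518, 0.536, 0.476 and 0.485). Mt2 passed without either ZT16 library (F24 0.455 and 0.587), and Mt1 without ZT16 replicate 2 (F24 0.496).

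A 24-hr curve takes little of a profile that is high at ZT12 and ZT20 and low at ZT16. The share of variance in the 8-hr component, the alternation of ZT4, ZT12 and ZT20 with ZT0, ZT8 and ZT16, was therefore computed after these values had been seen. It is the shortest period that sampling every 4 hr can show. Tat had 0.660 of its variance there (one-sided permutation p = 0.00419, adjusted p = 0.670) and Tsc22d3 had 0.404 (one-sided permutation p = 0.0334, adjusted p = 0.923). An unadjusted p under 0.05 was reached by 5.08% of all tested genes, and no gene passed after adjustment.

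The summed hepatocyte markers, of which Alb was the largest part in most libraries, were also high at ZT12 and ZT20. Without Tat, the summed level of the other 5 (Alb, Apoa1, Ttr, Cps1 and Hnf4a) was 1130 to 1494 rpbp in the 4 libraries of ZT12 and ZT20 and 551.9 to 1402 rpbp in the other 8, of which 1 (ZT8 replicate 2) was above the lowest of the 4. None of the 5 markers by itself had all 4 of these libraries above the other 8. Ttr was 55.0 rpbp in ZT12 replicate 1, the second lowest of the 12, and Apoa1 at ZT20 (76.4 and 88.8 rpbp) was below ZT4 replicate 2 (125.9 rpbp) and ZT16 replicate 2 (102.3 rpbp). The part of this in the profiles of Tat and Tsc22d3 was not tested.

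Sgk1 encodes a kinase that acts on ion channels and transporters, and lies on chromosome 10 from 21601990 to 21719695 on the plus strand. It stayed low, with 1.2, 3.7, 1.0, 2.5, 1.6 and 3.1 rpbp from ZT0 to ZT20 in replicate 1 and 2.7, 4.2, 1.2, 2.5, 1.3 and 1.6 rpbp in replicate 2. Both ZT4 values were above the other 10, and both ZT8 values were below every other value except ZT0 replicate 1, which equalled the higher of them. With a threshold of 3 rpbp, at which 10382 symbols were tested, its log2 difference between ZT4 and ZT16 was 1.02 (SE 0.275, limma adjusted p = 0.108), and its F-test over the time points had an adjusted p of 0.113.

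The metallothioneins Mt1 and Mt2 encode small cysteine-rich proteins that bind zinc and other metals, and both glucocorticoids and metals induce them. They lie on the plus strand of chromosome 8, Mt2 from 96696518 to 96697467 and Mt1 from 96703127 to 96704227, with 5660 bases from the end of Mt2 to the start of Mt1. Metals act on these genes through metal response elements. The RefSeq promoters (GRCm38.p6, 250 bases before to 50 after the start) were searched on both strands for the core of this element, TGCGCNC or TGCACNC. The Mt2 promoter held 4 and the Mt1 promoter 3, where 25.7% of 32851 promoters held at least 1 and 1.97% held 3 or more. For Mt1 the RefSeq start lies upstream of the 96703127 given above, with its 250 bases at chr8:96702739-96702988 in mm9. The bases just before 96703127 were therefore not searched. Of the 3 Mt1 cores 1 lies in these 250 bases, and the others lie after the RefSeq start. RefSeq promoters were found for 6 of the 7 genes (13 promoters), and apart from Mt1 and Mt2 a core was found in 1 promoter of Sgk1. The 250 bases before the Mt2 start, at chr8:96696268-96696517 in mm9, are shown with the 3 cores that lie in them in capitals, the last one read on the other strand.
Mt2 promoter: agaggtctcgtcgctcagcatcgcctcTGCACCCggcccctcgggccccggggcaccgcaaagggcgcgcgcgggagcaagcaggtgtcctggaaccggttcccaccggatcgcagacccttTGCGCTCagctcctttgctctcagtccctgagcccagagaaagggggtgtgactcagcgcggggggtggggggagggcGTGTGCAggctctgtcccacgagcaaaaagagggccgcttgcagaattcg

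Mt1 and Mt2 varied together from library to library. Mt1 values from ZT0 to ZT20 were 0.4, 1.4, 17.0, 6.2, 2.0 and 0.3 rpbp in replicate 1 and 0.0, 5.6, 1.0, 12.5, 27.3 and 0.0 rpbp in replicate 2. Mt2 gave 0.0, 0.0, 3.4, 2.1, 1.5 and 0.0 rpbp in replicate 1 and 0.2, 0.4, 0.1, 4.8, 11.6 and 0.0 rpbp in replicate 2. At ZT8 replicate 1 was the higher one for both genes, and at ZT16 replicate 2 was. The replicates of Mt1 differed 17.0-fold at ZT8 and 13.7-fold at ZT16, which put them at percentiles 99.9 and 99.8 of all tested genes for the log2(rpbp + 1) difference at these times. Both genes were at or near 0 in all libraries of ZT0 and ZT20, with at most 0.4 rpbp, and Mt2 was listed at 0 in both libraries of ZT20, so no fold is given against these times.

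Across time points the metallothioneins were not called by limma with all 12 libraries. Without ZT16 replicate 1 the log2 difference of Mt2 between ZT4 and ZT16 was −3.41, with 1 library left at ZT16. That library, ZT16 replicate 2, was the only 1 in which Mt2 passed 6 rpbp, so Mt2 was tested through it alone. Between ZT12 and ZT0 the log2 differences were 3.06 for Mt1 (SE 1.09, limma adjusted p = 0.158) and 1.95 for Mt2 (SE 0.736, limma adjusted p = 0.183). Time points held a smaller share of their variance than of most genes, at percentile 16.8 for Mt1 and 32.7 for Mt2 among all tested genes. The ZT8 libraries also differed in markers of other cells. The Kupffer cell markers summed to 44.3 rpbp in ZT8 replicate 1 and 18 rpbp in ZT8 replicate 2, the highest and the lowest of the 12 libraries. Cd5l (23.9 rpbp) and Emr1 (17.3 rpbp) made up most of the sum in ZT8 replicate 1, where Clec4f (1.6 rpbp) and Vsig4 (1.5 rpbp) were at their lowest of the 12 and below ZT8 replicate 2 (6.5 and 3.2 rpbp). The endothelial markers summed to 20.7 and 8.5 rpbp in these libraries, again the highest and the lowest. The T and B cell markers summed to 2.9 rpbp in ZT8 replicate 1 and to 0.2 to 1.9 rpbp elsewhere. In ZT16 replicate 2, where Mt1 was highest, the Kupffer sum was 29.3 rpbp and that of replicate 1 was 38.2 rpbp. The part of these cells in the metallothionein values was not tested.

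To ask which of the 7 genes vary together, the log2(rpbp + 1) values of all 21 pairs were correlated over the 12 libraries. After adjustment over the pairs, 3 Pearson correlations and 2 Spearman correlations had a permutation p under 0.05. Mt1 and Mt2 had a Pearson r of 0.909 (permutation p = 1e-04, adjusted p = 0.0021) and a Spearman rho of 0.858 (permutation p = 0.00055, adjusted p = 0.00808). Without the 2 libraries farthest from the median of Mt1 the r was 0.839. Among the 5 libraries with both genes above 1 rpbp, Mt1 was 1.33 to 5 times Mt2.

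Fkbp5 and Mt2 had an r of 0.794 (permutation p = 0.00415, adjusted p = 0.029) and a rho of 0.691 (permutation p = 0.0166, adjusted p = 0.0873). Their r was 0.555 without ZT12 replicate 2 and ZT16 replicate 2, so the relation rests on these libraries. For Tsc22d3 and Tat the libraries of ZT12 and ZT20 form a separate cluster, so no r over all 12 is given. Within the other 8 libraries their r was 0.645 (exact permutation p = 0.0844) and their rho 0.667 (exact permutation p = 0.0831), and the r was 0.290 without the 2 farthest libraries. Nr3c1 had an r of −0.423 to 0.0659 with the 6 target genes, and none of these passed. With the values centred within time points 1 of the 21 pairs passed. The 2 replicates of a time point then mirror each other, so the 12 centred values hold only 6 independent ones. The permutation treated them as 12, so no conclusion is drawn from this count.

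**Figure D3:**
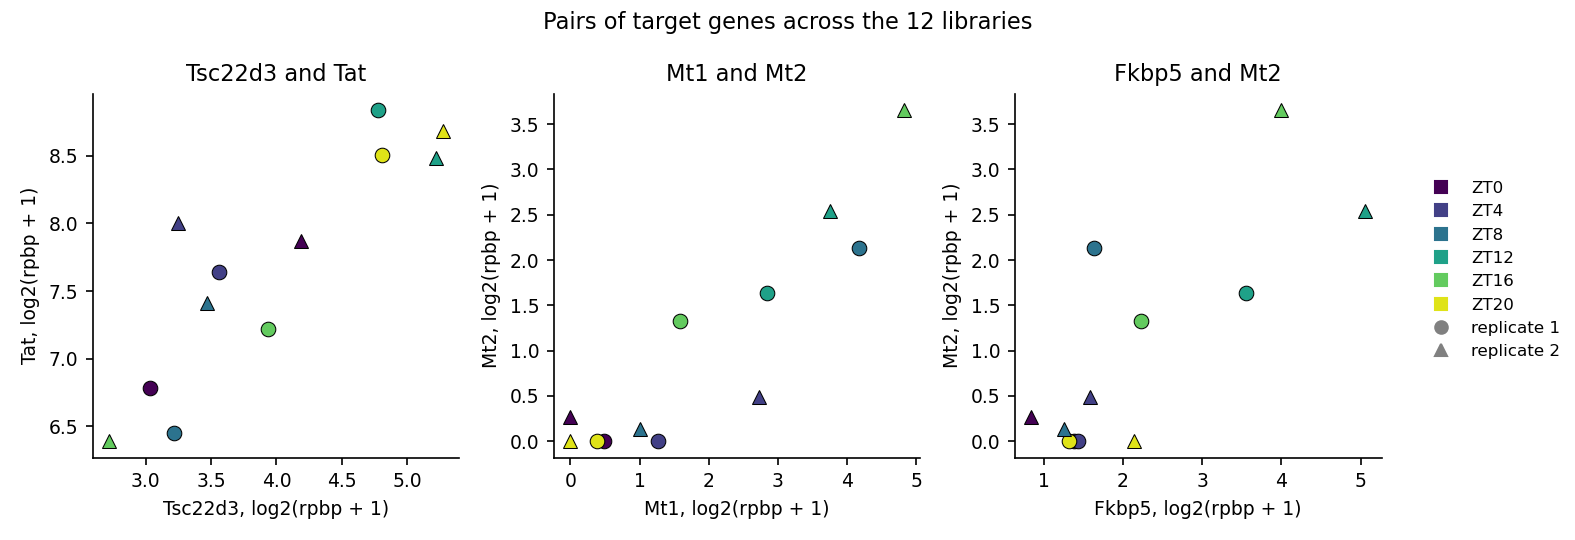
Log2(rpbp + 1) values of 3 pairs of target genes (x and y axes) in the 12 libraries, with colour for the time point and circles and triangles for replicates 1 and 2. Tsc22d3 and Tat are both high in the 4 libraries of ZT12 and ZT20, Mt1 and Mt2 lie along a line with ZT16 replicate 2 at its top, and the upper end of Fkbp5 and Mt2 is set by ZT12 replicate 2 and ZT16 replicate 2.

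The genes most like each of the 6 were taken as the 3 other tested symbols with the highest Pearson r over the 12 libraries, given as a description, since libraries share depth and base composition. For Tat they were Mug1 (r 0.929), Ahsg (0.915) and Tilz3b, the row that shares its reads with Tsc22d3. For Tsc22d3 they were Tilz3b, Agt (0.890) and BHMT (0.878). The separate cluster of ZT12 and ZT20 libraries in Tat and Tsc22d3 enters each of these r values. Mug1, Ahsg and Agt encode plasma proteins made by hepatocytes, and Bhmt encodes an enzyme of homocysteine metabolism. For Fkbp5 they were Pfkfb3 (r 0.932), 4933426M11Rik (0.919) and Chd7 (0.919), all 3 highest in ZT12 replicate 2.

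Mt1 and Mt2 shared C2, a complement component gene, as the most similar symbol (r 0.914 and 0.936), and it was highest in ZT16 replicate 2, as Mt1 and Mt2 were. The next for Mt1 were 1700021F05Rik (r 0.856) and D14Ertd436e (0.847), and for Mt2 they were AK006576 (0.923) and Slc39a14 (0.922). Slc39a14 encodes a zinc importer, and the clone AK006576 lies next to it on chromosome 14. Those of Nr3c1 were BC049806 (r 0.950), Ugt2b34 (0.926) and mKIAA0004 (0.909), all highest in ZT8 replicate 2, as Nr3c1 was.

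Other genes of the pathway were taken from 6 lists of 63 entries, of which 61 had a row and 47 were tested. The lists named Mt3 and Mt4 as well, which were not analysed here. By the F-test over time points 10 of the 47 were called (background 7.65%) and 11 were rhythmic by F24 (background 15.2%), and 15 met either criterion. The rhythm call uses an unadjusted permutation p, and with the adjusted one 1 of the 47 was rhythmic. Between ZT12 and ZT0, 8 were called higher (background 2.85%) and 2 lower (background 1.59%). These 10 became 2 without ZT0 replicate 1 or ZT12 replicate 1, 4 without ZT0 replicate 2 and 6 without either ZT20 library. The median log2 difference of the 47 at these times was 0.37, beside 0.03 over all tested genes.

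**Figure D4:**
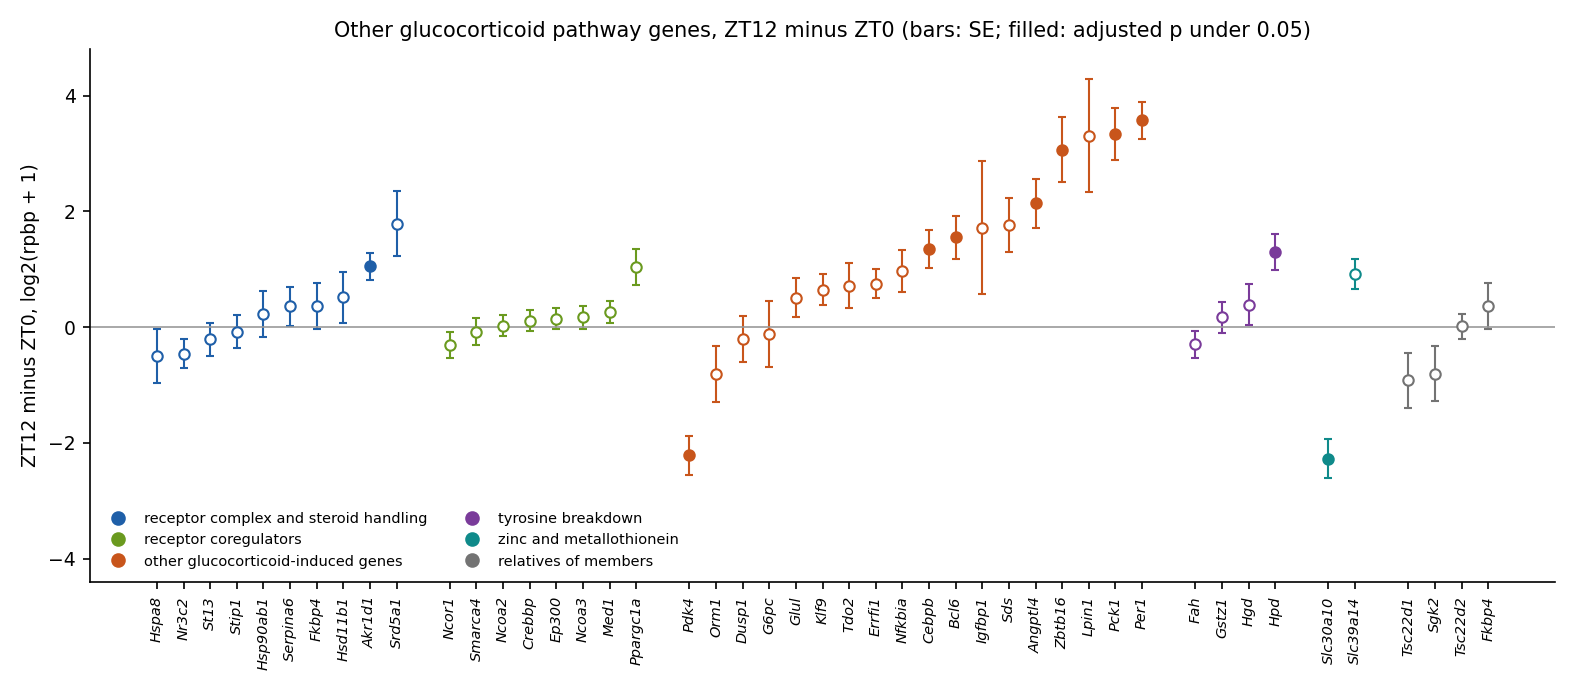
Log2 differences between ZT12 and ZT0 on the log2(rpbp + 1) scale (y axis) for tested genes of the 6 lists (x axis, coloured by list and ordered by size within it, with Fkbp4 in 2 lists). Bars are 1 SE and filled circles have a limma adjusted p under 0.05, which are 8 genes above 0 and 2, Pdk4 and Slc30a10, below.

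Of the receptor complex and of steroid handling, 10 of 14 genes were tested and 1 was called by the F-test, beside 7.65% of all tested genes. Serpina6 encodes the globulin that carries corticosterone in blood, and its nascent RNA was high in the light phase. It reached 25.8 and 36.5 rpbp at ZT8 and 20.8 and 13.8 rpbp at ZT4, and had 3.4 and 3.3 rpbp at ZT16 (limma F-test adjusted p = 0.00795, F24 0.626, phase 6.79 hr). Serpina6 was called higher at ZT8 than at ZT20 (log2 difference 2.04, SE 0.334, limma adjusted p = 0.0185) and higher at ZT4 than at ZT16 (2.05, SE 0.334, limma adjusted p = 0.0231). Nr3c2, the mineralocorticoid receptor gene, was rhythmic by F24 (0.631, phase 5.39 hr), with 11.1 to 30.1 rpbp. The chaperone genes of the complex that were tested (Hsp90ab1, Hspa8, Fkbp4, Stip1 and St13) were called in neither way.

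Among the receptor coregulators 9 of 10 were tested. Med1, a Mediator subunit gene, was rhythmic by F24 (0.614, phase 7.48 hr, adjusted permutation p = 0.210) within a narrow range of 5.6 to 8.7 rpbp.

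The list of other genes induced by glucocorticoids had 18 of 22 tested. The F-test called 6 (7.65% of all tested genes), and 5 were rhythmic (15.2%). With the adjusted permutation p only Per1 was rhythmic (0.0451). At ZT12, 6 were called higher (2.85%) and 1 lower (1.59%) than at ZT0. Their median log2 difference between ZT12 and ZT0 was 1.16, beside 0.03 over all tested genes. The list was chosen with earlier results of these data known. Per1, a clock gene that the receptor also induces, had 16.8 and 30.4 rpbp at ZT12 and 0.8 and 1.2 rpbp at ZT0 (log2 difference 3.57, SE 0.326, limma adjusted p = 0.000884). Zbtb16, which encodes the transcription factor PLZF, had 105.1 and 79.2 rpbp at ZT12 and 8.2 and 12.2 rpbp at ZT0 (3.07, SE 0.556, limma adjusted p = 0.0148). Both were rhythmic by F24, with a phase of 12.8 hr for Per1 and 13.4 hr for Zbtb16. Fkbp5, with a phase of 13.1 hr, was not called rhythmic. The other rhythmic genes of the list were Lpin1 (13.3 hr), Angptl4 (11.6 hr) and Pdk4 (23.6 hr).

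Pck1 encodes the enzyme that commits carbon to gluconeogenesis. It had 630.4 and 654.7 rpbp at ZT12 and 49.3 and 79.6 rpbp at ZT0 (log2 difference 3.34, SE 0.45, limma adjusted p = 0.00412). Cebpb, a transcription factor gene of the acute phase and of gluconeogenesis, had 41.9 and 25.4 rpbp at ZT12 and 13.3 and 11.2 rpbp at ZT0 (1.35, SE 0.326, limma adjusted p = 0.0456). Angptl4, an inhibitor of lipoprotein lipase, had 29.8 and 31.0 rpbp at ZT12 and 7.1 and 5.3 rpbp at ZT0 (2.14, SE 0.430, limma adjusted p = 0.0219).

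Not every gene of the list was high at lights off. Pdk4, which encodes a kinase that shuts off pyruvate dehydrogenase, fell from 3.5 and 6.4 rpbp at ZT0 to 0.1 and 0.4 rpbp at ZT12 (log2 difference −2.22, SE 0.338, limma adjusted p = 0.00688), with a phase of 23.6 hr. The 6.4 rpbp of ZT0 replicate 2 was its only value above 6 rpbp, so Pdk4 was tested through a time at which it is high. Orm1, an acute phase protein gene, was highest at ZT16 (57.7 and 41.6 rpbp) and was called lower at ZT4 than at ZT16 (−3.09, SE 0.480, limma adjusted p = 0.0174). Lpin1, which encodes a phosphatidate phosphatase, was high at lights off, with 85.7 and 62.4 rpbp at ZT12 and 6.0 and 7.0 rpbp at ZT0. It was rhythmic by F24 (0.496, phase 13.3 hr), but its ZT16 replicates had 4.3 and 103 rpbp. Its difference between ZT12 and ZT0 was not called (3.31, SE 0.974, limma adjusted p = 0.0883).

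Of the tyrosine breakdown genes downstream of Tat, Hpd, Hgd, Gstz1 and Fah were tested, and 0 were called by limma's F-test or by F24. Hpd, the enzyme after Tat, was called higher at ZT12 than at ZT0 (log2 difference 1.30, SE 0.313, limma adjusted p = 0.0444). It is named after its value was seen, as are Bcl6 (1.55, SE 0.374, limma adjusted p = 0.0456) and the steroid reductase gene Akr1d1 (1.05, SE 0.236, limma adjusted p = 0.0352), the other genes of the lists called at these times alone.

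Of the zinc and metallothionein list 2 of 5 genes with a row were tested. Both were called by the F-test and rhythmic, beside 7.65% and 15.2% of all tested genes. The zinc importer gene Slc39a14 had its phase at 13.7 hr (F24 0.532, limma F-test adjusted p = 0.0358). It had 60.1 and 88.3 rpbp at ZT16, and it differed less between the ZT16 replicates than Mt1 did. The transporter gene Slc30a10 had its phase at 22.6 hr (F24 0.843, limma F-test adjusted p = 0.0148), with 15.9 and 16 rpbp at ZT0 and 2.0 and 3.1 rpbp at ZT12 (log2 difference −2.27, SE 0.335, limma adjusted p = 0.0059). Mtf1, which encodes the factor that binds metal response elements, did not exceed 4.4 rpbp and was not tested.

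Of 6 relatives of the 7 genes, 4 were tested and 0 were called by limma's F-test over the time points. Sgk2, a kinase related to Sgk1 and higher in liver than it in these libraries (1.0 to 17.2 rpbp), was rhythmic by F24 (0.606, phase 3.05 hr). It was called higher at ZT4 (13.9 and 17.2 rpbp) than at ZT16 (4.1 and 1.0 rpbp), with a log2 difference of 2.37 (SE 0.470, limma adjusted p = 0.0364). Tsc22d1, Tsc22d2 and Fkbp4 were called in no comparison between time points 12 hr apart.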

How the data were processed

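The deposited table was made by the authors from 12 Nascent-Seq libraries. Per the paper's methods and the submitters' processing notes, reads were handled with CASAVA 1.7 and aligned to mm9 with TopHat, and uniquely mapped reads over the merged exons of a symbol were counted without regard to strand. The deposited signal is this coverage per exon base pair (rpbp), scaled by the authors to the same number of uniquely mapped reads and rounded to 1 decimal. Reads of overlapping genes (Tsc22d3 and Tilz3b) therefore cannot be told apart. The 2 lanes of each ZT8 and ZT20 library were merged by the authors. The authors also deposited F24, phase and p columns of their own, which were not used. No read numbers per gene are in the table, and counting errors were not estimated. The paper compared 2 lanes of a library and reports that most genes that differed between them were short. Mt1 and Mt2 have 753 and 556 exon bases, and the part of counting error in their replicate differences was not tested. Nothing in the labels says which animals a replicate holds, so p-values measure the spread between these libraries. All 12 columns were mapped to samples by their labels.

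Of the lines, 27919 blank ones were dropped. Genes that passed 6 rpbp in some library were fitted with limma 3.58.1 (R 4.3.3) on log2(rpbp + 1) with the 6 time points as groups, with Benjamini-Hochberg adjustment over all 6284 symbols. F24 used 100000 permutations of the values of a gene (Python 3.11.15, numpy 2.4.6). Correlations used permutation tests of the same number, or exact ones over 8 libraries. The limma fit and F24 were tested on simulated data. The 7 genes, the lists and the contrasts were chosen with earlier results of these data known. Named genes are all 7, the listed genes called by the F-test or rhythmic, and the 3 symbols most correlated with each tested gene. Of the listed genes 2 enter the counts but are not reported or plotted here. GENCODE M1 gave strand and start sites, and RefSeq promoters came from GRCm38.p6. They were placed in mm9 by exact match. Alternatives were thresholds of 3 and 12 rpbp and none, a pseudocount of 0.1, equal medians, removal of the GC trend in 20 bins, an intensity trend, 1-lane time points, a replicate block, a cosine fit, adjusted permutation p, F24 on log2 values, and each library left out. The 8-hr component was added after the data were seen.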

Additional observations from a re-analysis of the deposited data

How the results depend on the processing

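With 2 replicates per time point, 1 library decided many calls. Of 577 values of single genes under alternative settings, 509 kept their direction and side of the threshold, 34 lost and 24 gained a call, and 10 changed sign. All 98 alternative mean levels moved by less than 1 SD over the 12 libraries, which is wide for the low genes. Leaving out 1 of 12 libraries cannot move a mean by 1 SD. For those settings the measure could not fail, and no conclusion is drawn from it. The means without each library were 3.99 to 6.85 rpbp for Fkbp5, 4.22 to 6.7 rpbp for Mt1 and 1.14 to 2.19 rpbp for Mt2. The cause of the changes below was not tested.

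By the F-test, 481 genes became 120 in the 1-lane time points (fewer samples) and 73 with all symbols tested. The tested genes of the 7 called by it, 2 with the deposited values, were 0 in these settings and without the GC trend, and 1 (Fkbp5) above 3 rpbp, with a pseudocount of 0.1 and with the replicate block. The listed genes went from 10 to 5 and 1. With all symbols tested, the ZT12 and ZT0 counts were 111 for all genes, 0 for the 7 and 1 for the lists. Under the same setting ZT8 and ZT20 gave 16 and 0 for the lists, and ZT4 and ZT16 gave 39 and 0. Above 12 rpbp, ZT4 and ZT16 gave 84. Rhythmic genes were 508 above 12 rpbp, 2234 with all symbols, 44 by adjusted p and 163 by the cosine fit, and for the lists 1 and 4 by the last 2. Of the 7 genes, 3 were rhythmic on log2 values, and 1 (Fkbp5) without the GC trend, with equal medians and with the replicate block. Correlated pairs were 1 when centred within time points, with the limit given above.

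Leaving out each library gave these ranges, for all genes, the 7 and the lists in turn. They were 170 to 638, 0 to 4 and 7 to 13 by the F-test, 26 to 388, 0 to 1 and 2 to 12 for ZT12 and ZT0, 4 to 166, 0 to 1 and 0 to 4 for ZT8 and ZT20, 22 to 253, 0 to 2 and 0 to 7 for ZT4 and ZT16, and 797 to 1259, 0 to 2 and 8 to 13 for rhythms. Correlated pairs were 2 to 4. Gained calls included that of Mt2 between ZT4 and ZT16 without ZT16 replicate 1, which leaves 1 library at ZT16. Another was that of Tsc22d3 between ZT8 and ZT20 without either ZT16 library.

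Signs changed for uncalled differences only. ZT12 minus ZT0 of Nr3c1 was 0.036 without the GC trend and −0.17 to 0.088 over left-out libraries. ZT4 minus ZT16 of Tsc22d3 was −0.058 without the GC trend, −0.13 at equal medians and −0.53 to 0.68 over left-out libraries. The ranges over left-out libraries were −0.36 to 0.070 for ZT4 minus ZT16 of Nr3c1, −0.69 to 0.13 for ZT8 minus ZT20 of Fkbp5 and −2.83 to 0.41 for ZT4 minus ZT16 of Mt1.

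The replicate numbers were not used to pair the samples in the main fit. Deviations of same-numbered libraries from their time point means correlated between −0.117 and 0.320 over 15 pairs of time points, and 5 exceeded 0.1.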

Other observations

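The alternation seen for Tat and Tsc22d3 was looked for in the 47 listed pathway genes, after the values were seen. An unadjusted permutation p under 0.05 for the 8-hr component was reached by 7 of them (14.9%, beside 5.08% of all tested genes), with adjusted p-values from 0.670 to 0.923. Bcl6, a transcriptional repressor gene, had the largest share, 0.584, with a mean of 28.0 rpbp over ZT4, ZT12 and ZT20 and of 14.0 rpbp over ZT0, ZT8 and ZT16. Pck1 followed with 0.531 (448 and 150 rpbp). The others were Srd5a1, Sds, Hpd and Hgd, which were higher at ZT4, ZT12 and ZT20 as well, and Orm1, which was lower then (7.52 and 27.0 rpbp). Sds encodes serine dehydratase, and Hpd and Hgd encode enzymes that act after Tat in tyrosine breakdown.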
